A study of Mus musculus with 14 samples.

Results

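The p200 family of interferon-inducible genes was described in mouse bone marrow cells sorted as Sca1-positive and cKit-negative. Its members were taken as every probe set of the array whose annotated gene symbols include Ifi202b, Ifi203, Ifi204, Ifi205, Mndal or Aim2, which gave 10 probe sets of 22626 tested. Of these, 5 carry 1 symbol (Ifi202b, Ifi204, Aim2 and a pair for Mndal) and 5 carry several, so that a value at the latter cannot be given to 1 gene. The family was chosen with its values on these arrays already known, Ifi202b in particular. Its levels in the groups and the differences between them are therefore a description, with no test.

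Cells came from mice that carried a Matrigel implant (n = 4 arrays), a BPLER tumour described as instigating (Instigator, n = 5) or a PC3 tumour of matched size described as non-instigating (Non-instigator, n = 5). The Matrigel control is a gel of basement membrane proteins. BPLER and PC3 are lines of human tumour cells, BPLER from transformed mammary epithelium and PC3 from a prostate carcinoma. Instigating tumours are those that drive indolent tumour cells at other sites of the same host to grow. The labels state neither the strain, age or sex of the mice nor whether each array is a separate animal, so any spread given here is that between arrays and may be technical. For Instigator 5 the labels conflict: title and source give BPLER, by which it was grouped, and the free-text field gives PC3.

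All values are log2 of RMA intensity, on which a difference of 1 is a doubling, and a level is compared only within its own probe set. Of the arrays, Instigator 4 and Matrigel 3 were unlike the rest. The 5' minus 3' difference of the beta-actin control was -3.41 on Instigator 4, against -0.81 to -0.51 on the other 13 arrays. Matrigel 3 had a median intensity of 145.4, against 119.5 to 128.9 elsewhere. Differences of the p200 probe sets from Matrigel are given with and without both. The pan-leukocyte gene Ptprc averaged 11.37, 11.38 and 11.41 in Matrigel, Instigator and Non-instigator arrays. Kit, whose product the sort selected against, averaged 7.52, 7.58 and 7.37 at its brighter probe set. Ly6a, which encodes Sca1, was not analysed here.

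The p200 proteins share a C-terminal domain that binds DNA, and most also have an N-terminal pyrin domain for contacts with other proteins. Aim2 detects double-stranded DNA in the cytosol and assembles an inflammasome through the adaptor Pycard. Ifi202b encodes p202, which lacks the pyrin domain and can counteract Aim2. Ifi204 encodes a sensor of DNA that also acts in differentiation of myeloid cells, and Mndal, Ifi203 and Ifi205 encode nuclear proteins of the same family. Interferons induce many of these genes, and Ifi202b is known for mRNA levels that differ widely between inbred strains. The genes lie side by side on mouse chromosome 1. In the RefSeq gene order of assembly GRCm38.p6, Aim2 lies at one end of the cluster, and Ifi204, Ifi203-ps, Mndal, Ifi211, Ifi203, Ifi202b and Ifi205 follow towards the other.

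The upstream sequences are shown as background, and whether they bear on the array values was not tested. RefSeq windows of GRCm38.p6 were found for 5 of the 6 genes (all but Ifi204). A window here is the 250 bases before a transcript start. The first shown is that of Ifi202b (chr1:173982845-173983094, minus strand), all in lower case since it holds no match to the motif marked in the next. The second is that of Ifi205 (chr1:174031756-174032005, minus strand), with capitals on its match to GAAA, any 2 bases and GAAA, the core of interferon-stimulated response elements. All are from the C57BL/6J reference and written 5′ to 3′ on the gene's strand. The labels do not state the strain of the mice, so their own sequences may differ.
Ifi202b: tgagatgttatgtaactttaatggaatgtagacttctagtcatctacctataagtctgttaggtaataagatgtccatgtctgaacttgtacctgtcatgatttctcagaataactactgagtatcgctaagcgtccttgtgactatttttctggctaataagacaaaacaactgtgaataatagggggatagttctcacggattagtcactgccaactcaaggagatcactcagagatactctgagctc
Ifi205: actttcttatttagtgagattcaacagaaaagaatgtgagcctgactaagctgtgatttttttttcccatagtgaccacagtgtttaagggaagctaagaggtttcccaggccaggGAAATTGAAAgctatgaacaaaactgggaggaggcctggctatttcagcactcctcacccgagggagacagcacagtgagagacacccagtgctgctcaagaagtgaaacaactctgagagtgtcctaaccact

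That paired-GAAA match of Ifi205 lies in a stretch that other members share. The 50 bases around it are shown for 4 neighbours, with the match in capitals: Mndal at chr1:173880194-173880243, Ifi203 at chr1:173942498-173942547, Ifi211 at chr1:173913054-173913103 and Ifi205 at chr1:174031860-174031909, all on the minus strand.
Mndal: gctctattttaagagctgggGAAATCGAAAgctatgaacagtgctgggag
Ifi203: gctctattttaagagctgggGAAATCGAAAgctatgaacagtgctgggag
Ifi211: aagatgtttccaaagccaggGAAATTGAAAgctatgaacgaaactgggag
Ifi205: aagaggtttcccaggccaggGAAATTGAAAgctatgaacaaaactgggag
Over these 50 bases Mndal and Ifi203 were identical, and Ifi211 and Ifi205 shared 46. Between the pairs, 33 to 35 bases were shared.

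Of 12 p200 genes with a window, 9 held the paired GAAA on either strand. By window this was 10 of 14, against 2.98% of all 32851 windows of the same length, some of which belong to the same gene. Family members share sequence around the match, as shown above, so their matches are not independent cases. Ifi202b, Aim2 and Ifi209 held none. TGANTCA, a looser form of the AP-1 core (TGACTCA or TGAGTCA), was found for Ifi203, Ifi209 and Mndal and in 6.75% of all windows. The match was TGATTCA for Ifi203, TGACTCA for Ifi209, and TGATTCA and TGAGTCA in separate windows of Mndal. Windows with the strict core were not counted. The paired GAAA with T as the last of the bases between, a subset of the first motif, was found for Ifi205 and Ifi211 and in 0.682% of all windows. GGAAGT, a core of Ets-type elements, was found for Aim2, Ifi207, Ifi209 and Ifi211 and in 19.7% of all windows. A match is a run of letters in this reference and not a measured binding site.

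Ifi202b, the p202 gene, was lower in both tumour groups than in Matrigel arrays. The Matrigel arrays lay at 10.94, 10.85, 11.66 and 10.47 in the order of their numbers. The Instigator arrays lay at 9.98, 10.11, 10.16, 10.60 and 9.76, and the Non-instigator arrays at 9.84, 9.81, 9.50, 9.54 and 10.82. Thus 8 of 10 tumour arrays lay below the lowest Matrigel array, 4 in each group, and Instigator 4 and Non-instigator 5 lay within the Matrigel range.

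The Ifi202b group means were 10.98 ± 0.49 for Matrigel (SD, n = 4), 10.12 ± 0.31 for Instigator (SD, n = 5) and 9.90 ± 0.53 for Non-instigator arrays (SD, n = 5). Instigator lay below Matrigel by a difference of -0.86 (SE 0.27), or 1.81-fold, and Non-instigator by -1.08 (SE 0.27), or 2.11-fold. Both comparisons use the same 4 Matrigel arrays. The tumour groups lay 0.22 apart (SE 0.25), less than the spread of either. Their order, Matrigel above Instigator above Non-instigator, is thus unsettled for its lower pair.

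Without Instigator 4 and Matrigel 3, the differences from Matrigel were -0.75 for Instigator and -0.85 for Non-instigator arrays. The 4 remaining Instigator arrays then lay below all 3 remaining Matrigel arrays, while Non-instigator 5 still overlapped them. Without Non-instigator 5 alone, with all other arrays kept, the Non-instigator difference was -1.31. Instigator 5, at 9.76, was the lowest of its group, and with it counted as Non-instigator the differences were -0.77 and -1.10. The probe set has the s_at suffix, which marks probes shared by transcripts of more than 1 gene.

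**Figure D1:**
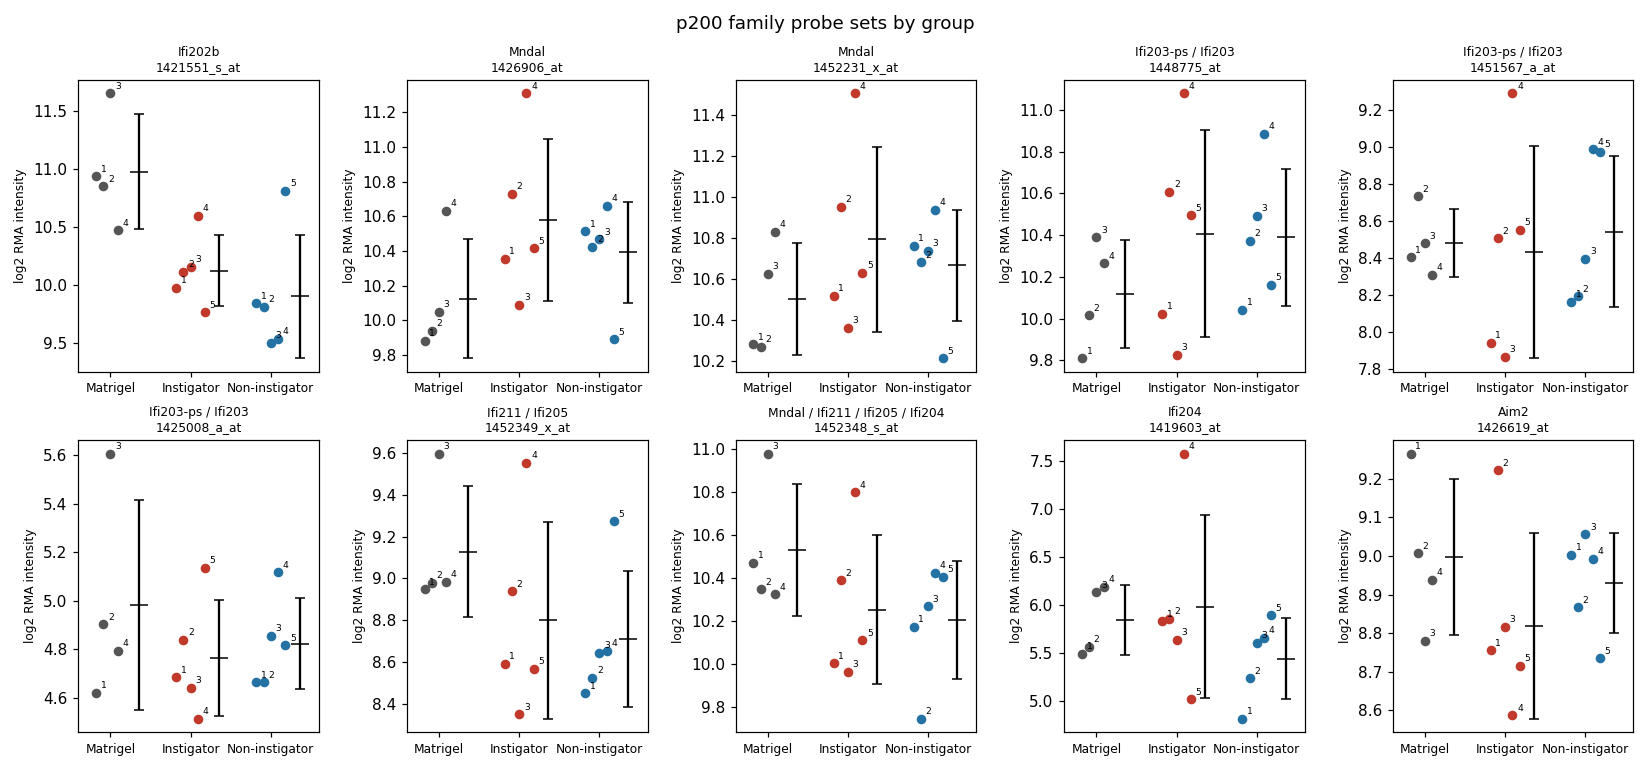
Levels of the 10 p200 probe sets, as log2 RMA intensity, for each array (points, numbered by replicate) in the Matrigel (n = 4), Instigator (n = 5) and Non-instigator (n = 5) groups, with the group mean and SD as a bar to the right. Ifi202b lies lower in 8 of 10 tumour arrays than in any Matrigel array, while both panels of Mndal alone have their lowest group mean in Matrigel.

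Mndal, which encodes a nuclear p200 protein, had higher means in the tumour groups at both probe sets that carry its symbol alone. At the first the Matrigel arrays lay at 9.88, 9.94, 10.05 and 10.63. The Instigator arrays lay at 10.36, 10.73, 10.09, 11.31 and 10.42, and the Non-instigator arrays at 10.51, 10.42, 10.47, 10.66 and 9.89. Of the Matrigel arrays 3 lay low and Matrigel 4 high, and Non-instigator 5 lay as low as the low Matrigel arrays, so that the groups overlap.

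Group means of Mndal there were 10.13 ± 0.34 for Matrigel (SD, n = 4), 10.58 ± 0.47 for Instigator (SD, n = 5) and 10.39 ± 0.29 for Non-instigator arrays (SD, n = 5). The difference from Matrigel was 0.46 (SE 0.23) for Instigator and 0.27 (SE 0.23) for Non-instigator. Instigator 4 was the highest of all arrays, and without it and Matrigel 3 both differences were nearly equal, at 0.25 and 0.24. The second set gave 0.29 (SE 0.21) and 0.17 (SE 0.21), and 0.16 and 0.21 without those arrays. Its x_at suffix marks probes that match further transcripts. The sets followed each other with r = 0.97 over 14 arrays.

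The arrays in which Ifi202b was high or low within its group were in part those in which Mndal was low or high. Among Matrigel arrays, Matrigel 4 had the lowest Ifi202b and the highest Mndal. Among Non-instigator arrays, Non-instigator 5 had the highest Ifi202b and the lowest Mndal. Instigator 4 departed from this, with the highest value of its group for both. Matrigel 3 had the highest Ifi202b of its group (11.66) but not the lowest Mndal (10.05). Instigator 5 and Non-instigator 3 had the lowest Ifi202b of their groups (9.76 and 9.50), with Mndal in the middle of the group (10.42 and 10.47).

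Over 14 arrays Pearson's r between Ifi202b and the first Mndal set was -0.42. It was -0.71 over the 13 arrays without Instigator 4 and -0.73 over the 12 without Matrigel 3 as well. With the group means removed it was -0.74 over those 12 arrays, and -0.24 over all 14. These correlations are descriptive, and the points share the scale and labelling of an array. At the second Mndal set r was -0.26 over 14 arrays and -0.71 over 12.

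**Figure D2:**
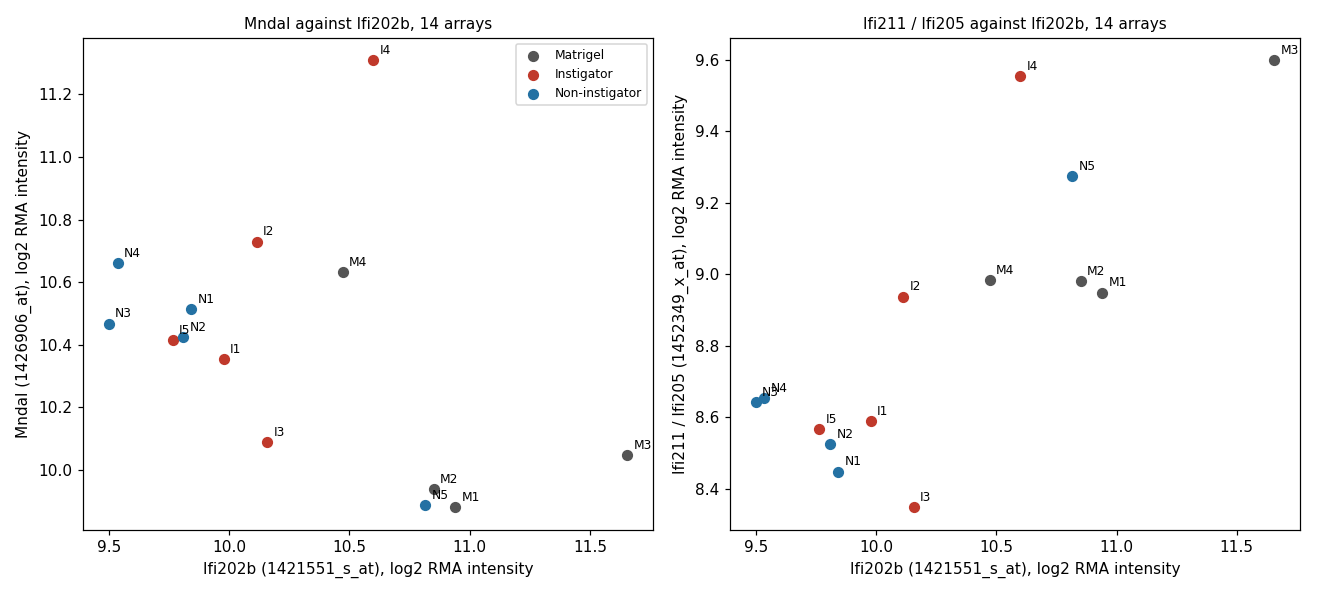
Each point is 1 of 14 arrays, labelled by the first letter of its group and its number, with the log2 RMA intensity of Ifi202b on the horizontal axis and that of Mndal (left) or of the probe set shared by Ifi211 and Ifi205 (right) on the vertical axis. On the left r is -0.42, with Instigator 4 at the top apart from the falling trend, and on the right r is 0.80.

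The sets that hold Ifi203 also hold its pseudogene Ifi203-ps and further loci. The first has the suffix at, the second a_at with 4 symbols, and the third a_at with 3 symbols. At the first the Matrigel arrays lay at 9.81, 10.02, 10.39 and 10.26. The Instigator arrays lay at 10.02, 10.61, 9.83, 11.08 and 10.49, and the Non-instigator arrays at 10.04, 10.37, 10.49, 10.88 and 10.16. The groups overlapped, with Instigator 4 the highest array and the lowest arrays in Matrigel and Instigator.

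This Ifi203 set lay above Matrigel by 0.29 (SE 0.23) in Instigator and by 0.27 (SE 0.23) in Non-instigator arrays, within its spread, and by 0.21 and 0.36 without both unlike arrays. It followed Mndal (r = 0.79 at the first Mndal set, and 0.73 without both arrays that stood apart). The second set differed by -0.05 (SE 0.26) and 0.06 (SE 0.26), or -0.26 and 0.06 without them, and Instigator 4 again lay highest, at 9.29 against 7.87 to 8.99 on the others. The third, dim set ranged from 4.51 to 5.61 with Matrigel 3 the highest, and differed by -0.22 (SE 0.18) and -0.16 (SE 0.18), or by 0.05 in both comparisons without the arrays that stood apart. Thus the sets annotated to Ifi203 share symbols but no common direction.

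Ifi205 is represented only with Ifi211, its near neighbour, at an x_at set, and with Ifi211, Mndal and Ifi204 at an s_at set. At the x_at set the Matrigel arrays lay at 8.95, 8.98, 9.60 and 8.99. The Instigator arrays lay at 8.59, 8.94, 8.35, 9.55 and 8.57, and the Non-instigator arrays at 8.45, 8.52, 8.64, 8.65 and 9.27. As for Ifi202b, the lowest Matrigel array lay above all tumour arrays but Instigator 4 and Non-instigator 5.

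The Ifi211 and Ifi205 set lay below Matrigel by -0.33 (SE 0.23) in Instigator and by -0.42 (SE 0.23) in Non-instigator arrays, 1.26-fold and 1.34-fold. The values were -0.36 and -0.26 without Instigator 4 and Matrigel 3, and Instigator then did not overlap Matrigel. The Instigator value was -0.52 without Instigator 4 alone and -0.17 without Matrigel 3 alone. The 4-gene set differed by -0.28 (SE 0.19) and -0.33 (SE 0.19), or by -0.26 and -0.18 without both arrays. Among the family, the Ifi211 and Ifi205 set was the most like Ifi202b, with r = 0.80 over 14 arrays and 0.73 over 12.

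Ifi204, the myeloid DNA sensor, was dim, with Matrigel arrays at 5.50, 5.56, 6.13 and 6.19. The Instigator arrays lay at 5.83, 5.86, 5.64, 7.58 and 5.02, and the Non-instigator arrays at 4.82, 5.24, 5.61, 5.66 and 5.89. The high value belongs to Instigator 4 alone, and the Instigator difference from Matrigel was 0.14 (SE 0.39) with it, -0.26 without it and -0.16 without Matrigel 3 as well. Non-instigator differed from Matrigel by -0.40 (SE 0.39), or by -0.31 without Matrigel 3.

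Aim2, the inflammasome sensor, had the narrowest range over 14 arrays of the 10 probe sets. Its Matrigel arrays lay at 9.26, 9.01, 8.78 and 8.94, the Instigator arrays at 8.76, 9.22, 8.82, 8.59 and 8.71, and the Non-instigator arrays at 9.00, 8.87, 9.06, 8.99 and 8.74. The groups overlapped throughout. Its difference from Matrigel was -0.18 (SE 0.13) in Instigator and -0.07 (SE 0.13) in Non-instigator arrays, or -0.19 and -0.14 without both unlike arrays. It did not follow Ifi202b (r = -0.11 over 14 arrays, 0.17 over 12). Ifi209, a family gene outside the set of members, had a bright set at -0.29 (SE 0.20) and -0.30 (SE 0.20) from Matrigel in the same order (-0.28 and -0.15 without both unlike arrays), and r = 0.92 with the Ifi211 and Ifi205 set.

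**Figure D3:**
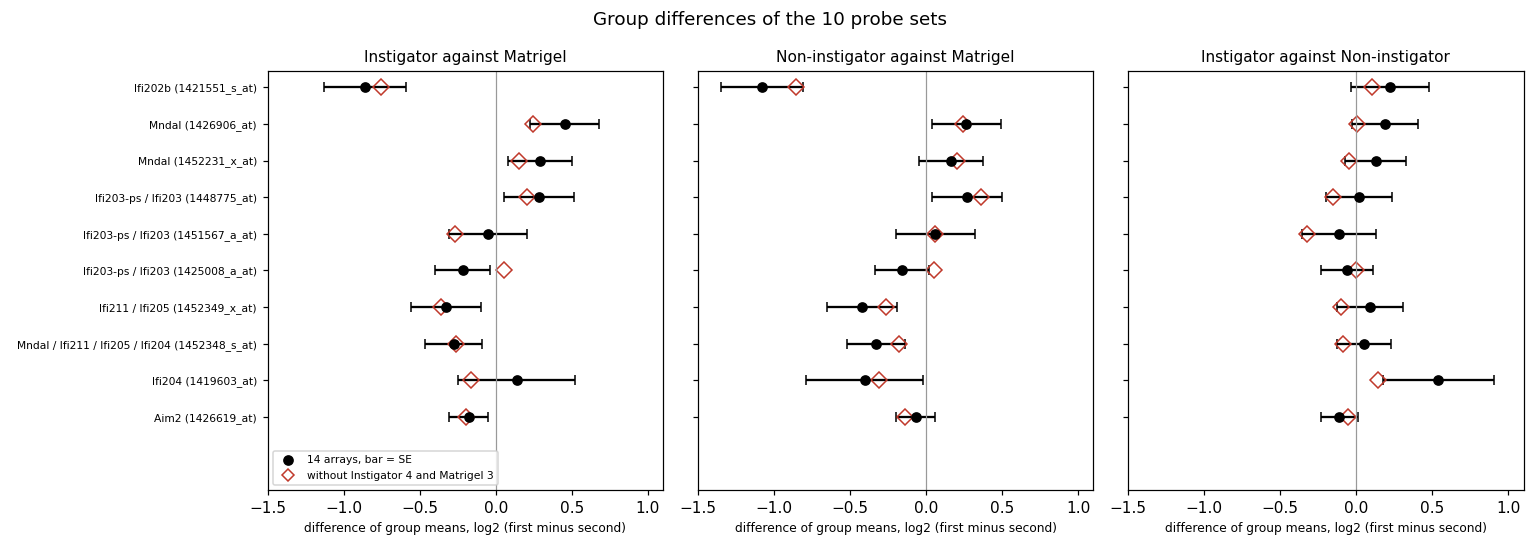
Differences of group means on the log2 scale for the 10 probe sets in the 3 comparisons, first group minus second, with SE as bars (14 arrays) and open diamonds for the values without Instigator 4 and Matrigel 3. Ifi202b lies at -0.86 and -1.08 against Matrigel, and the sets annotated to Mndal alone lie to the right of 0 in both comparisons. The set that Mndal shares with Ifi211, Ifi205 and Ifi204 lies to the left, at -0.28 and -0.33.

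Across the family, 6 of 10 probe sets had a lower mean in Instigator than in Matrigel arrays and 4 a higher one, and the same counts held for Non-instigator. The median difference was -0.11 in both, against -0.03 and -0.04 over all probe sets. Between the tumour groups 7 were higher in Instigator and 3 lower, with a median of 0.07 against 0.02 over all probe sets. None of the 10 separated its groups fully in any comparison, and 2.69% of all probe sets did so for Instigator against Matrigel, 0.897% for Non-instigator against Matrigel and 1.2% between the tumour groups. Without Instigator 4 and Matrigel 3, 2 of 10 did so for Instigator against Matrigel, beside a background of 7.2%, and 0 of 10 in the other comparisons, beside 1.71% and 2.52%.

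**Figure D4:**
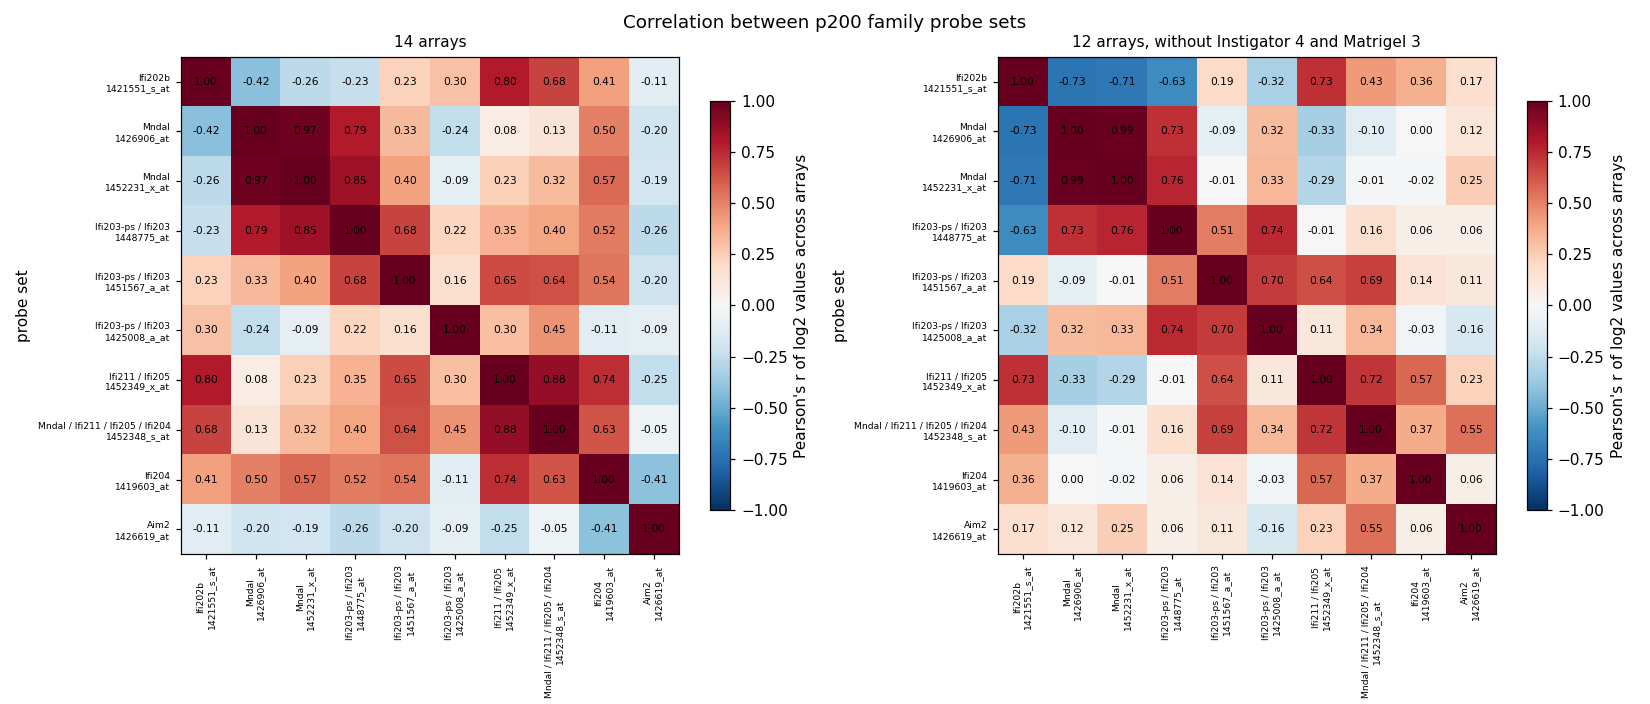
Pearson's r of log2 values between the 10 p200 probe sets, over 14 arrays (left) and over the 12 without Instigator 4 and Matrigel 3 (right). Ifi202b runs against Mndal, at -0.42 and -0.73 for the first set, and with the Ifi211 and Ifi205 set, at 0.80 and 0.73.

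Genes with the pattern most like Ifi202b were sought by Pearson's r over 14 arrays among 10325 single-symbol probe sets in the brighter part of the array. The first 10 were Galnt11 (r = 0.88) and Mgat1 (0.86), which encode glycosyltransferases, Alg2 (0.84), which acts in assembly of N-glycan precursors, the actin-related Arpc5l (0.83), Zfpl1 (0.80), the kinase gene Fam20b (0.80), the neuropeptide gene Cort (0.80), the transcription factor genes Rfx5 (0.80) and Creb1 (0.79), and 1 of the probe sets of Pycard (0.79), the adaptor of Aim2. For 5 of these genes (Alg2, Arpc5l, Fam20b, Creb1 and Pycard) the other probe sets followed Ifi202b less closely, with r from -0.17 to 0.48. Only 4 of these 10 stayed among the first 10 without Instigator 4 and Matrigel 3 (Zfpl1, Galnt11, Arpc5l and Mgat1), where the Pycard set had r = 0.60. With group means removed, 1 of the 10 (Mgat1, r = 0.94) stayed. That Pycard set averaged 7.35 ± 0.38 for Matrigel (SD, n = 4), 7.09 ± 0.27 for Instigator (SD, n = 5) and 6.99 ± 0.12 for Non-instigator arrays (SD, n = 5). The brighter Pycard set, which stands for the gene in the lists, averaged 9.78, 9.75 and 9.77 in the same order and had r = -0.09 with Ifi202b over 14 arrays.

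The wider interferon pathway was examined through lists of its genes. Type I interferon response genes, the targets that interferon signalling switches on, numbered 34 measured of 46 listed. By limma's test with Benjamini-Hochberg adjustment over all probe sets, 0 of the 34 passed in any comparison, and 0% of all probe sets did. At an unadjusted p under 0.05, 1 was higher and 5 lower in Instigator than in Matrigel arrays, beside 3.27% and 7% of all probe sets, or 10.3% in either direction. In Non-instigator against Matrigel arrays 0 were higher and 3 lower, beside 0.601% and 1.51%, or 2.11% in either direction. Between the tumour groups 2 were higher and 1 lower in Instigator, beside 2.24% and 3.36%, or 5.6% in either direction.

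Their median difference was -0.08, -0.10 and 0.11 in the 3 comparisons, against -0.02, -0.04 and 0.03 over all 12393 genes. In Instigator against Matrigel arrays the largest differences were Bst2, which tethers budding virions, at -0.72 (SE 0.27), the GTPase Igtp at 0.53 (SE 0.29), Usp18, a brake on interferon receptor signalling, at -0.51 (SE 0.26) and Tor3a at 0.49 (SE 0.19). Without Instigator 4, Bst2 lay at -0.47 and Igtp at 0.21, and without Matrigel 3 Tor3a lay at 0.26. In Non-instigator against Matrigel they were Usp18 at -0.68 (SE 0.26), Ifi27l2a at -0.51 (SE 0.32), the antiviral synthetase Oas1a at -0.42 (SE 0.20) and Bst2 at -0.35 (SE 0.27). Without Non-instigator 1, Ifi27l2a lay at -0.17 and Bst2 at -0.22, and without Matrigel 3 Oas1a lay at -0.23. Between the tumour groups they were the RNA sensor Ifih1 at 0.54 (SE 0.26), Cmpk2 at 0.46 (SE 0.18), Sp100 at -0.44 (SE 0.19) and Oasl2 at 0.39 (SE 0.26). All 4 were smaller in size without Instigator 4, at 0.23, 0.29, -0.28 and 0.10. The Ifi202b differences from Matrigel, -0.86 and -1.08, were larger in size than any of the 34 in the same comparison. Ifi202b was chosen with its values known and the 34 were not picked by size, so this ranking is no test.

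Of 23 interferon receptor and signalling genes, 22 were measured and 0 passed by limma in any comparison. At an unadjusted p under 0.05 there were 3, 1 and 2 in the order above, beside 10.3%, 2.11% and 5.6% of all probe sets. The medians of this list were -0.08, -0.01 and -0.07, against -0.02, -0.04 and 0.03 over all genes. Against Matrigel, the interferon gamma receptor chain Ifngr2 differed by -0.52 (SE 0.27) in Instigator arrays and its partner Ifngr1 by 0.43 (SE 0.21). Without Instigator 4 and Matrigel 3 these were -0.05 and 0.08. Ifngr1 also differed by 0.47 (SE 0.21) in Non-instigator arrays, and by 0.16 without Matrigel 3. The phosphatase gene Ptpn2, which dampens signalling of Jak kinases, lay at -0.38 (SE 0.12) in Instigator arrays.

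The cytosolic DNA sensing and inflammasome genes include partners of Aim2 as well as genes of other sensors. Of these, 16 of 24 listed were measured, and 0 passed by limma in any comparison. At an unadjusted p under 0.05 there were 3, 0 and 1, beside 10.3%, 2.11% and 5.6% of all probe sets. The medians of the list were 0.03, -0.01 and 0.09, against -0.02, -0.04 and 0.03 over all genes. Nlrp3, the sensor of another inflammasome, lay 0.34 (SE 0.14) above Matrigel and 0.45 (SE 0.13) above Non-instigator in Instigator arrays, and 0.21 and 0.32 without Instigator 4. The cytokine gene Il18 differed by -0.56 (SE 0.27) in Non-instigator against Matrigel arrays. Among 13 measured genes of proteins described as partners or targets of p200 proteins, 0 passed by limma in any comparison. At an unadjusted p under 0.05 there were 0 in each, beside 10.3%, 2.11% and 5.6% of all probe sets. The immediate early gene Fos had the largest difference of these 13 genes. It was 0.70 (SE 0.56) in Instigator and 0.58 (SE 0.56) in Non-instigator against Matrigel arrays. Single arrays carried both, since the values were 0.21 without Instigator 3 and 0.15 without Non-instigator 3.

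**Figure D5:**
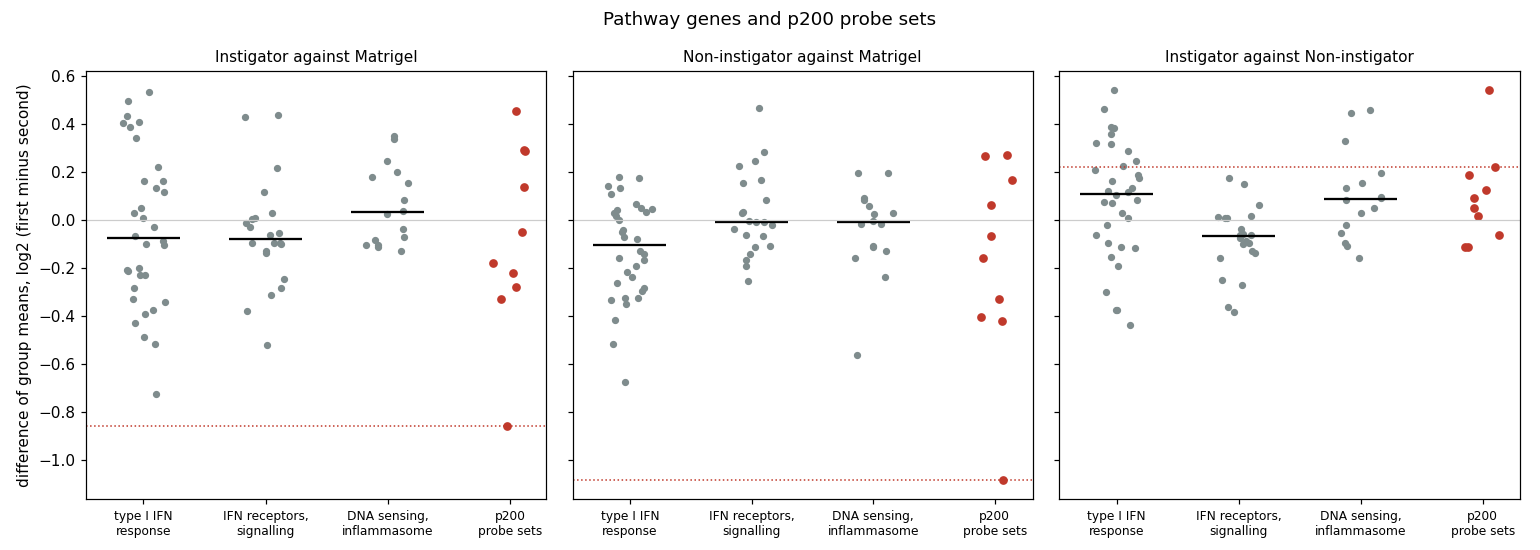
Each grey point is a gene of 1 of 3 interferon-related lists, with the list median as a line, and each red point is a p200 probe set, as differences of group means on the log2 scale in the 3 comparisons. The dotted line marks Ifi202b, which was chosen with its values known. It lies below all 34 type I interferon response genes in both comparisons with Matrigel, while the list medians lie between -0.10 and 0.11.

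Genes on either side of the cluster were listed as well, with 9 measured of 23 names, Aim2 and Ifi209 included. None passed by limma in any comparison. At an unadjusted p under 0.05 there was 1, in Instigator against Matrigel arrays, beside 10.3% of all probe sets. This was Slamf1, a lymphocyte receptor, at -0.52 (SE 0.23), and at -0.34 without Instigator 3. Fcer1a, which encodes the alpha chain of the IgE receptor of basophils and mast cells, lay 0.48 (SE 0.25) and 0.40 (SE 0.25) above Matrigel in Instigator and Non-instigator arrays, the latter 0.19 without Non-instigator 4. The cell adhesion gene Cadm3, next to Aim2, differed by 0.00 (SE 0.10) and -0.06 (SE 0.10).

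Markers of some cell types also differed between the groups. Of 4 measured plasmacytoid dendritic cell markers (Bst2, Tcf4, Ccr9 and Spib), 4 had a lower mean in each tumour group than in Matrigel arrays, and Bst2 is also among the type I interferon response genes. Their summed intensity ran from 5122 to 7334 in Matrigel, 2514 to 5206 in Instigator and 2906 to 6498 in Non-instigator arrays. The summed level of 5 B cell markers ran from 3251 to 5120, 1544 to 4240 and 2074 to 6066 in the same order, with 4 of 5 lower in each tumour group. That of 4 basophil and mast cell markers ran the other way, from 998 to 1589, 1507 to 2669 and 1406 to 2758. Of these markers 4 of 4 were higher in each tumour group, Fcer1a among them. Without Instigator 4 and Matrigel 3, this sum ran from 1296 to 1589 in Matrigel and 1507 to 2161 in Instigator arrays. The plasmacytoid dendritic cell sum of Instigator arrays then ran from 2893 to 5206. Of 4 NK cell markers, 4 were lower in Instigator and 4 higher in Non-instigator than in Matrigel arrays. Over all 12393 genes, 54.1% were lower in Instigator than in Matrigel arrays and 61.7% in Non-instigator. No defining marker of these lists was at 0, which RMA values do not reach.

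Non-instigator 5, the array with Ifi202b in the Matrigel range, had the highest summed level of all 14 arrays for the B cell list (6066), the plasma cell list (6071), the NK cell list (10085), the dendritic cell list (2579), the erythroid list (962) and the platelet and megakaryocyte list (562). It had the lowest for monocytes and macrophages (5658). Instigator 4 had the highest there (12900). Such sums, and the correlations with them below, give most weight to the brightest genes of a list. On Non-instigator 5 every marker of the B cell and NK cell lists was at its highest of all 14 arrays. In the plasma cell list only Xbp1 and Prdm1 were. In the dendritic cell list only H2-Ab1 was, in the erythroid list only Rhag, and in the platelet and megakaryocyte list only Pf4. For those lists the sum thus does not stand for all members. In bulk samples a smaller share of a cell type and less RNA of a gene per cell cannot be told apart. The part of these markers in the p200 values was not tested. Across 14 arrays r between Ifi202b and the log2 summed level was 0.33 for plasmacytoid dendritic cells, 0.50 for B cells, 0.54 for dendritic cells, 0.50 for platelets and megakaryocytes, and 0.53 for endothelial and mesenchymal cells. It was -0.67 for neutrophils and -0.64 for basophils and mast cells. Over the 12 arrays without Instigator 4 and Matrigel 3 these were 0.50, 0.47, 0.44, 0.57, 0.07, -0.52 and -0.68 in the same order. The other 6 lists lay between -0.20 and 0.30 over 14 arrays. Mndal, at its first set, had r = 0.67 with the basophil and mast cell list over the 12 arrays, the largest of the lists. The other lists lay between -0.43 and 0.27 with Mndal. For Mndal these values were not computed over 14 arrays.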

How the data were processed

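Expression was measured on 14 Affymetrix mouse arrays from RNA labelled with a NuGen Ovation system. Per the submitters' processing notes, the authors' deposited intensity values come from RMA (affy, R 2.11.0), with options unstated here. RMA subtracts background, equalises array distributions and joins each set's probes into 1 value, which compresses differences of dim sets. These deposited intensities were put on the log2 scale here and not normalized again. The number of arrays limits the precision.

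Of 22690 probe sets, 64 controls were left out. Symbols came from the platform annotation (20380 with 1 symbol, 691 with several, 1555 unnamed). A listed gene stands for its single-symbol probe set of highest mean. All arrays entered 1 limma 3.58.1 fit (R 4.3.3) with Benjamini-Hochberg adjustment over 22626 probe sets and a threshold of 0.05. On simulated data it called 94%, 88% and 86% of probe sets changed by 1 in the comparison of Instigator with Matrigel, of Non-instigator with Matrigel and of both tumour groups. For a change of 0.5 it called 44%, 32% and 56% in the same order. The simulated noise was independent and normal, with no arrays that stood apart.

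The members and gene lists were chosen with earlier results of these data known. The text names all members, up to 4 genes of a list by size of difference, and the 10 probe sets most like Ifi202b. Promoter sequences are RefSeq's (GRCm38.p6). The motifs were chosen after the values were seen, and some motif results are not reported here. Alternatives were the compared groups alone, the brighter probe sets, quantile normalization, median centring, trend with robust estimation, array weights, a replicate block, each array left out, Instigator 5 moved, Instigator 4 and Matrigel 3 left out, and, for lists, averaging all probe sets per gene. Plots used matplotlib 3.10.9.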

Additional observations from a re-analysis of the deposited data

Results flagged for a closer look

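Of 30 sets of values (10 probe sets in 3 groups), 3 held an array far from the others of its group by Dixon's criterion at 95%, which chance flags in about 1 of 20 groups. Ifi202b on Non-instigator 5 lay at 10.82, against 9.84 for the next array of its group. The Ifi211 and Ifi205 set lay at 9.27 on the same array, against 8.65 for the next. On Matrigel 3 that set lay at 9.60, against 8.99.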

How the results depend on the processing

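The Ifi202b difference from Matrigel kept its sign under all 18 alternatives in each comparison with Matrigel. It ran from -1.03 to -0.63 for Instigator and from -1.31 to -0.85 for Non-instigator with 1 array left out, and from -0.93 to -0.75 and -1.15 to -0.85 under the others. Between the tumour groups it ran from 0.10 to 0.45. The differences of the third and second Ifi203 sets and Ifi204 in Instigator against Matrigel changed sign in 1, 4 and 3 alternatives. In Non-instigator against Matrigel those of the third and second Ifi203 sets and Aim2 did so in 3, 3 and 1. Between the tumour groups 6 probe sets did so, the first Ifi203 set in 8 of 19. Ifi204 and the third Ifi203 set have no value among the brighter probe sets.

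The median of type I interferon response genes ran from -0.13 to -0.0011, -0.17 to -0.08 and 0.02 to 0.18 with 1 array left out, and its genes called stayed at 0 in every alternative. Over all probe sets the count was 0 in each comparison (smallest adjusted p 0.439, 0.986 and 0.813 by limma), with 2324, 477 and 1268 at an unadjusted p under 0.05. It rose to 1 in Instigator against Matrigel without Instigator 4, and stayed at 1 without Instigator 4 and Matrigel 3. Leaving out 1 array thus gave 0 to 1, and the probe set called was that of Scd2 each time.

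Deviations from group means of same-numbered arrays correlated at -0.20 to 0.27. Differently numbered arrays were not compared, so these values cannot show whether the number marks a pairing. With the replicate number as a block, 0 probe sets were called in each comparison, and Ifi202b differed by -0.93 and -1.15 from Matrigel.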
